A study of Homo sapiens with 12 samples.

Results

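The Src family kinases YES1, SRC, FYN, LYN, LCK and FGR, the scaffold BCAR1 and the Eph receptor EPHB6 were followed in 2 human leukemia cell lines after depletion of the deubiquitinating enzyme USP15. The 8 genes were taken by their symbols from the raw count tables of both lines, which together list 31316 genes. They were chosen by their log2 differences between siUSP15 and siCtrl in these same libraries: YES1 and EPHB6 for their decrease in K562 set 1, and BCAR1 for its difference between the lines. Those values are therefore given as a description, without a p-value. All 8 members were listed in KBM7, and 7, all except FGR, in K562. In each line 6 members passed the filter on low counts, and LCK and FGR did not.

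KBM7 and K562 are lines from the blast crisis of chronic myelogenous leukemia, and both carry the BCR-ABL1 fusion. Cells received either siUSP15, a mixture of siRNAs that target USP15, or siCtrl, a mixture without a target, and their RNA was collected at 72 h. KBM7 gave 2 siUSP15 and 2 siCtrl libraries, and K562 gave 4 siUSP15 and 4 siCtrl libraries. The K562 libraries were treated as set 1 (replicates 1 and 2) and set 2 (replicates 3 and 4), a split known from an earlier analysis of these libraries. No source says what separates the sets, or that replicates were separate cultures, and a p-value here speaks only of how far libraries of a group lie apart.

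Src family kinases are held at the inner face of the plasma membrane by a lipid anchor and pass signals from receptors, integrins and cytokine receptors to the cytoplasm. CSK locks them in an inactive state by phosphorylating a tyrosine in the tail, and phosphatases such as PTPRC (CD45) release them. SRC, FYN and YES1 are found in most tissues, whereas LYN, FGR and LCK are mainly kinases of blood cells, and LYN is known to be active downstream of BCR-ABL1. BCAR1 is a docking protein that Src kinases phosphorylate and that then binds CRK adaptors at sites of adhesion. EPHB6 is a receptor for B-type ephrins whose kinase domain has lost its catalytic activity.

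Total counts were 23450607 to 29441118 per library in KBM7 and 23020401 to 43566543 in K562. Levels are given as normalized CPM, which are counts divided by the library total and scaled by TMM over all 12 libraries. USP15 was at 106 and 107 normalized CPM in siUSP15 libraries of KBM7, against 198 and 201 in siCtrl libraries. In K562 USP15 was at 119 and 141 in siUSP15 libraries of set 1, against 275 and 282 in siCtrl libraries, and at 197 and 200.3 in siUSP15 libraries of set 2, against 356 and 341 in siCtrl libraries. USP15 thus fell to 53.4% of siCtrl in KBM7, to 46.7% in set 1 and to 57.0% in set 2 (edgeR adjusted p = 1.58e-07, 8.32e-10 and 7.19e-07). The first principal component of the K562 libraries held 68.7% of the variance and separated the sets. Since the split was known from these libraries, that is a description and no independent check. Along this component the siUSP15 libraries of set 1 lay at -16.5 and -9.85. They were between the siCtrl libraries of set 1 (-31.9 and -29.6) and the libraries of set 2 (20.3 to 23.7). Reads of genes encoded in mitochondrial DNA made up 5.13% and 5.43% of counts in siUSP15 libraries of set 1, against 4.83% and 4.98% in siCtrl libraries of set 1, and 3.20% to 3.27% in set 2. In KBM7 they made up 2.22% and 2.67% in siUSP15 libraries, against 2.06% and 2.67% in siCtrl libraries. The part of these shares in the results was not tested. The erythroid genes HBG1 and GATA1 were low in KBM7 (at most 0.293 and 30.9 normalized CPM) and high in K562 (391.9 to 559.3 and 219 to 285). KBM7 had CD34 at 402 to 494 and CD33 at 74.3 to 91.4 normalized CPM. The lymphoid marker CD3E stayed at or below 1.07 normalized CPM in every library, whereas the epithelial markers EPCAM and KRT8 were at 84.9 to 98.4 and 355 to 601 normalized CPM in K562.

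YES1 and EPHB6 are the members that passed the threshold as lower after siUSP15 in both K562 sets. FYN was lower in both too, but passed in set 1 only. The sequence before the starts of YES1 and EPHB6 is shown because the report turns on these genes. In hg38, YES1 lies on chromosome 18 (721588 to 812546) and EPHB6 on chromosome 7 (142855061 to 142871094). The stretches cover 250 bases before and 50 bases after the RefSeq start (GRCh38.p14), printed 5′ to 3′ on the strand of the gene. Capitals mark the GC box GGGCGG on either strand (CCGCCC on the other).
YES1, chr18:812193-812492, minus strand: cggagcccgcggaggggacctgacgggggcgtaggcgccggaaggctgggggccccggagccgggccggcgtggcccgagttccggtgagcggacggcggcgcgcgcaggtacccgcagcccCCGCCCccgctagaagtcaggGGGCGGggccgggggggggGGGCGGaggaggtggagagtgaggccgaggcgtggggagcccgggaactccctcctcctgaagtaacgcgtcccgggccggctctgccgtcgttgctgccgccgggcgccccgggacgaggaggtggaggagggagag
EPHB6, chr7:142862506-142862805, plus strand: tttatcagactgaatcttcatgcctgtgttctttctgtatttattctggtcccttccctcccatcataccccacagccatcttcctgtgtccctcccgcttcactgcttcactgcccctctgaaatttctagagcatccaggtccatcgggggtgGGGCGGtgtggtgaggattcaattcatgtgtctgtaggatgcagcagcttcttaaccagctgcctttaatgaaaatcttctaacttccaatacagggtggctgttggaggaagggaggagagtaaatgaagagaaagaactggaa
The YES1 stretch held 3 GC boxes at 78.7% G and C, and the EPHB6 stretch held 1 at 48% G and C. Of 35116 RefSeq promoters of the same length, 45% held at least 1 GC box. The motif GATAA, the core bound by GATA factors, which reads as TTATC on the opposite strand, was found 0 times before YES1 and 1 time before EPHB6, and 22.7% of promoters held it. The RefSeq start of EPHB6 lies inside the gene as the count table places it, so other starts of the gene are not covered.

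YES1 was lower after siUSP15 in KBM7 and in both K562 sets. In KBM7, YES1 was at 58.6 and 61.1 normalized CPM in siUSP15 libraries, against 104 and 108 in siCtrl libraries. K562 set 1 had it at 130 and 136 in siUSP15 libraries, against 311 and 312 in siCtrl libraries. In K562 set 2 it was at 142 and 146 in siUSP15 libraries, against 201 and 203 in siCtrl libraries. The groups did not overlap in any of the 3 comparisons, nor over all K562 libraries. With 2 libraries per group, a lack of overlap alone does not show an effect, here or for the genes below. YES1 was left at 56.4% of siCtrl in KBM7, 42.7% in set 1 and 71.4% in set 2. The siUSP15 libraries of the sets were close to each other, and the siCtrl libraries lay further apart, those of set 1 being the higher.

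The log2 difference of YES1 (siUSP15 minus siCtrl) was -0.83 ± 0.05 in KBM7, -1.25 ± 0.04 in K562 set 1 and -0.47 ± 0.04 in K562 set 2 (SE, n = 2 libraries per group). In set 2 the decrease passed the threshold (edgeR quasi-likelihood test, adjusted p = 9.32e-06). YES1 ranked 2 there by p-value after USP15 among 14337 genes tested. YES1 was picked on set 1, but both sets were fitted together with a shared spread, and earlier results of these data were known. The set 2 p-value and rank are therefore not independent of the choice of YES1. The effect in set 1 minus that in set 2 was -0.77 ± 0.05. The effect in KBM7 minus that in K562 was 0.04 ± 0.06, but K562 set 2 alone gave -0.34 ± 0.06, since the KBM7 effect lay between those of the K562 sets.

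EPHB6 was lower after siUSP15 in K562, whereas its low level in KBM7 stayed near siCtrl. EPHB6 was at 219 and 225 normalized CPM in siUSP15 libraries of K562 set 1, against 530 and 594 in siCtrl libraries. In K562 set 2 it was at 157 and 168 in siUSP15 libraries, against 198 and 225 in siCtrl libraries. Within each set the groups did not overlap, but over all 4 against 4 K562 libraries they did, since the siUSP15 libraries of set 1 (219 and 225) reached above siCtrl replicate 3 of set 2 (198). In KBM7 EPHB6 was at 13.0 and 13.2 in siUSP15 libraries, against 13.3 and 14.6 in siCtrl libraries, also without overlap.

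EPHB6 was left at 39.5% of siCtrl in set 1 and at 76.7% in set 2. The log2 difference was -1.36 ± 0.06 in set 1 and -0.37 ± 0.06 in set 2 (SE, n = 2 libraries per group, edgeR adjusted p = 0.00468 in set 2). The set 2 test has the limit given for YES1. Without siCtrl replicate 4, the set 2 value was -0.27 and missed the threshold (edgeR adjusted p = 0.0651). In KBM7 the log2 difference was -0.08 ± 0.09. The effect in set 1 minus that in set 2 was -0.99 ± 0.08, and the effect in KBM7 minus that in K562 was 0.79 ± 0.11. Against K562 set 2 alone the difference of the lines was 0.30, which missed the threshold.

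BCAR1 moved in opposite directions in the lines. On chromosome 16 (75228187 to 75268053), it had 35 and 23 counts in siUSP15 libraries of KBM7, against 118 and 133 counts in siCtrl libraries. These are 1.15 and 0.912 normalized CPM in siUSP15 libraries, against 3.84 and 5.25 in siCtrl libraries, so BCAR1 was left at 22.7% of a low level. It was at 33.6 and 37.0 in siUSP15 libraries of K562 set 1, against 25.3 and 26.9 in siCtrl libraries. In K562 set 2 it was at 30.6 and 31.4 in siUSP15 libraries, against 28.7 and 29.3 in siCtrl libraries. The groups did not overlap in KBM7 or in either K562 set, lower after siUSP15 in the first and higher in the others.

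The log2 difference of BCAR1 was -2.11 ± 0.23 in KBM7, 0.42 ± 0.06 in set 1 and 0.11 ± 0.06 in set 2 (SE, n = 2 libraries per group). The value of set 2 did not pass the threshold. The effect in KBM7 minus that in K562 was -2.36 ± 0.20.

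**Figure D1:**
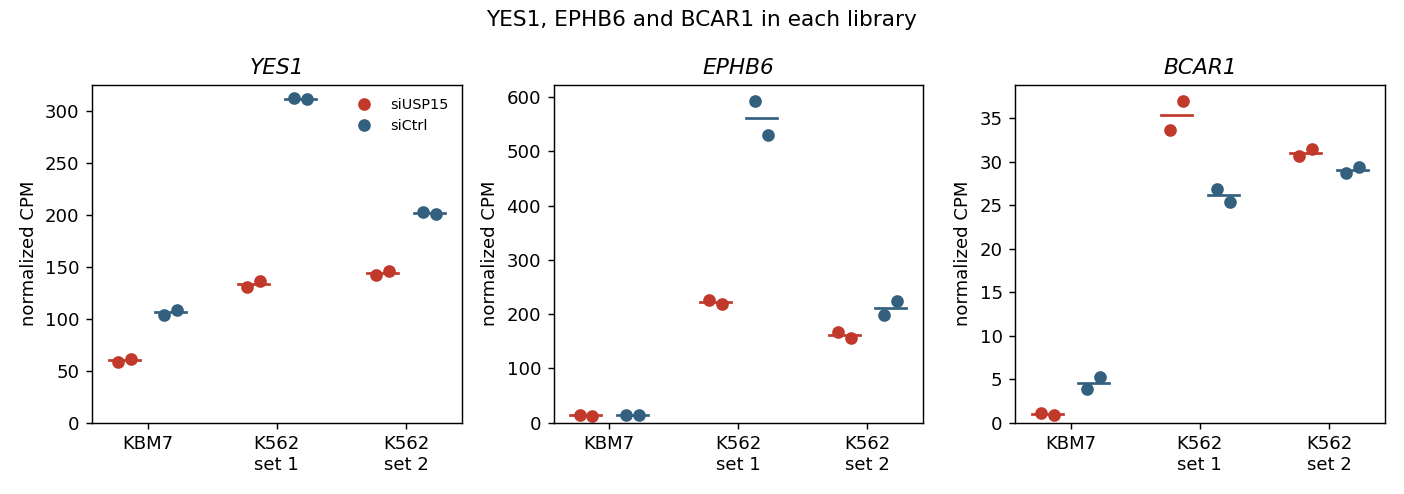
Normalized CPM (y axis, from 0) of YES1, EPHB6 and BCAR1 in KBM7 and the K562 sets, siUSP15 left of siCtrl. Points are libraries and short lines are means of 2. YES1 is lower after siUSP15 in all 3 comparisons, EPHB6 is lower in K562, and BCAR1 is lower in KBM7 and higher in K562 set 1.

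SRC, the founding member of the family, stayed near its siCtrl level. In KBM7 it was at 22.7 and 23.7 normalized CPM in siUSP15 libraries, against 23.3 and 23.5 in siCtrl libraries. In K562 it was at 16.9 and 18.3 in siUSP15 libraries of set 1, against 16.6 and 19.2 in siCtrl libraries, and at 10.0 and 10.5 in siUSP15 libraries of set 2, against 9.36 and 10.0 in siCtrl libraries. The groups overlapped each time. The log2 difference was -0.01 ± 0.07 in KBM7, -0.06 ± 0.09 in set 1 and 0.10 ± 0.11 in set 2.

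FYN, which is close to SRC and YES1 in sequence, shifted little. In K562 set 1 it was at 40.6 and 41.0 normalized CPM in siUSP15 libraries, against 45.0 and 48.4 in siCtrl libraries, a log2 difference of -0.22 ± 0.05. In set 2 it was at 39.2 and 40.2 in siUSP15 libraries, against 42.5 and 43.7 in siCtrl libraries, a log2 difference of -0.10 ± 0.05 that did not pass (edgeR adjusted p = 0.342). In KBM7 it was at 4.66 and 5.19 in siUSP15 libraries, against 3.90 and 4.52 in siCtrl libraries, a log2 difference of 0.21 ± 0.14 that did not pass. Groups did not overlap in any of these, but neither did those of LYN, nor those of EPHB6 in KBM7, so little is read from it. The effect on FYN in KBM7 minus that in K562 was 0.38 ± 0.13. That difference was lost with DESeq2, limma-voom, no filter and the replicate number as a block, against K562 set 2 only, and without KBM7 siCtrl replicate 2, KBM7 siUSP15 replicate 2, K562 siCtrl replicate 1, K562 siCtrl replicate 3 or K562 siUSP15 replicate 4. The set 1 decrease was lost without siCtrl replicate 1.

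LYN, the most abundant Src family kinase of KBM7, was at 423 and 436 normalized CPM in siUSP15 libraries of KBM7, against 459 and 476 in siCtrl libraries. Its log2 difference there was -0.12 ± 0.04, a decrease that passed the threshold but was lost with DESeq2, with the replicate number as a block, and without siCtrl replicate 1, siCtrl replicate 2 or siUSP15 replicate 1. LYN was at 189 and 197 in siUSP15 libraries of K562 set 1, against 176 and 183 in siCtrl libraries (log2 difference 0.09 ± 0.04). In set 2 it was at 177 and 184 in siUSP15 libraries, against 187 and 194 in siCtrl libraries (log2 difference -0.06 ± 0.04). Neither K562 value passed, and they pointed in opposite directions, although the groups did not overlap in KBM7 or in either K562 set.

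**Figure D2:**
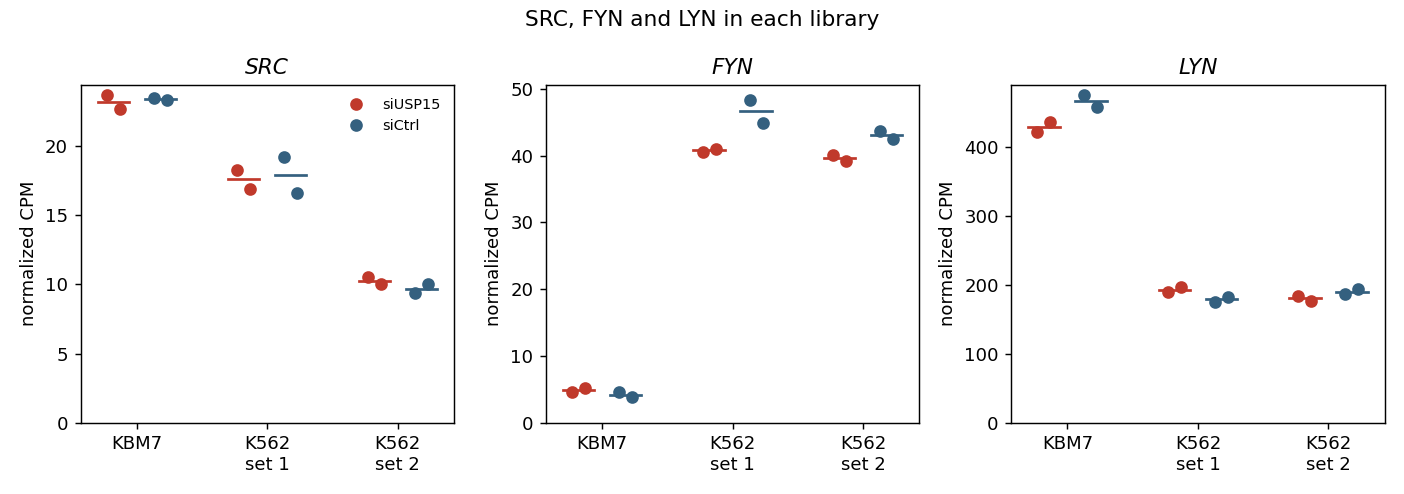
Normalized CPM (y axis, from 0) of SRC, FYN and LYN in KBM7 and the K562 sets, siUSP15 left of siCtrl. Points are libraries and short lines are means of 2. Gaps between siUSP15 and siCtrl are small beside those between the lines, LYN being highest in KBM7 and FYN in K562.

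LCK, a kinase of T cells, and FGR, one of myeloid cells, were at the limit of detection. In KBM7 LCK had 0 and 5 counts in siUSP15 libraries, against 6 and 3 in siCtrl libraries, and FGR had 4 and 1 counts in siUSP15 libraries, against 2 and 2 in siCtrl libraries. In K562 LCK had 1 count in siUSP15 replicate 2 and 0 in the other 7 libraries. A count of 0 allows up to 3 counts, or 0.0720 to 0.130 normalized CPM in K562. Differences of these genes were not detectable at this depth, and in bulk RNA fewer cells with a transcript and less of it per cell cannot be told apart.

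In KBM7, 3 of the 6 members tested passed (YES1, BCAR1 and LYN, all lower), beside 29% of all genes tested there. In K562 set 1, 4 of 6 passed (YES1, EPHB6 and FYN lower, BCAR1 higher), beside 35.7% of all genes. In K562 set 2, 2 of 6 passed (YES1 and EPHB6, both lower), beside 2.29% of all genes. Over both K562 sets, with a term for the sets, 4 of 6 passed beside 15.8% of all genes: the log2 difference was -0.86 ± 0.12 for YES1, -0.87 ± 0.16 for EPHB6, -0.16 ± 0.04 for FYN and 0.26 ± 0.06 for BCAR1 (SE, n = 4 libraries per group). With the replicate number as a block, 2 of 6 passed over both sets, beside 1022 of all 13731 genes. The effect differed between the K562 sets for 3 of 6 members (YES1, EPHB6 and BCAR1), beside 12.5% of all genes, and between the lines for 3 of 6 (BCAR1, EPHB6 and FYN), beside 23.2%. Since the members were picked on these contrasts, nothing is read from these shares. For YES1 and EPHB6 the set 2 libraries are not those of the pick, but the fit was shared, so their calls are not independent of it. FYN and BCAR1 were lost over both sets without siCtrl replicate 1, siCtrl replicate 2 or siUSP15 replicate 1, which left 2 members past the threshold. Of all genes, 860, 555 and 820 passed in these fits, against 2167 in the main fit.

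**Figure D3:**
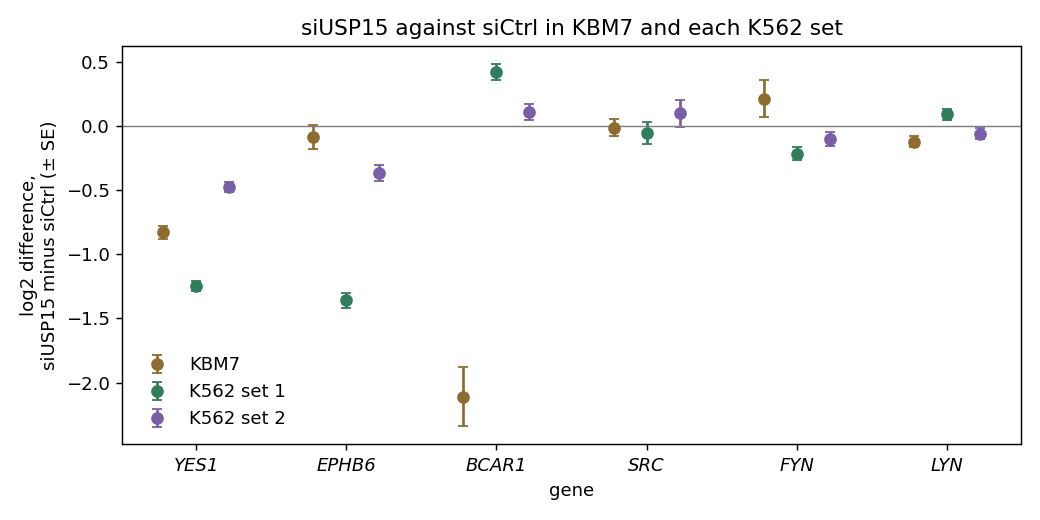
Log2 difference, siUSP15 minus siCtrl, with SE (y axis) of the 6 members tested, in KBM7, K562 set 1 and K562 set 2. YES1 is below 0 throughout, EPHB6 is below 0 in both K562 sets, and BCAR1 lies at -2.11 in KBM7 and at 0.42 and 0.11 in the K562 sets.

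The lines express different Src family kinases to begin with. In siCtrl libraries, CPM values were divided by exon length (GENCODE v44) to compare genes. In KBM7 the order was LYN at 75.8, YES1 at 20.8, SRC at 3.28, EPHB6 at 2.62, FYN at 0.568 and BCAR1 at 0.494 normalized CPM per kb, with LCK at 0.0470 and FGR at 0.0213. FYN and BCAR1 overlapped in KBM7, and the others above them did not. The order in K562 set 1 was EPHB6 at 105.5, YES1 at 61.1, LYN at 29.1, FYN at 6.30, BCAR1 at 2.84 and SRC at 2.51. In K562 set 2 EPHB6 at 39.7 and YES1 at 39.5 overlapped, followed by LYN at 30.9, FYN at 5.82, BCAR1 at 3.16 and SRC at 1.36. LYN was thus the leading Src family kinase in KBM7 and YES1 in K562.

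All 6 members tested differed between the lines in siCtrl libraries, beside 85.5% of all genes. LYN was higher in KBM7 than in K562 by 1.34 ± 0.04 on the log2 scale (edgeR adjusted p = 6.91e-22) and SRC by 0.83 ± 0.07 (adjusted p = 6.16e-11). FYN was lower in KBM7, with a log2 difference of -3.40 ± 0.08 (edgeR adjusted p = 4.07e-23). EPHB6, BCAR1 and YES1 were lower in KBM7 too, with log2 differences of -4.63 ± 0.07, -2.62 ± 0.10 and -1.24 ± 0.04; these share siCtrl libraries with the contrasts that picked them and are given without a p-value. The lines were counted in separate tables, so line and run cannot be told apart.

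The siCtrl libraries of the K562 sets also differed from each other, for 4 of 6 members beside 55.4% of all genes. SRC was higher in set 1 than in set 2 by 0.90 ± 0.10 on the log2 scale (edgeR adjusted p = 9.5e-07). EPHB6 was higher by 1.42 ± 0.06 and YES1 by 0.64 ± 0.04, given without a p-value for the same reason. FYN was higher by 0.13 ± 0.05 (edgeR adjusted p = 0.0485), a call that was lost with RLE size factors, DESeq2, limma-voom and no filter. LYN (-0.07 ± 0.04) and BCAR1 (-0.14 ± 0.06) did not pass (edgeR adjusted p = 0.146 for LYN).

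**Figure D4:**
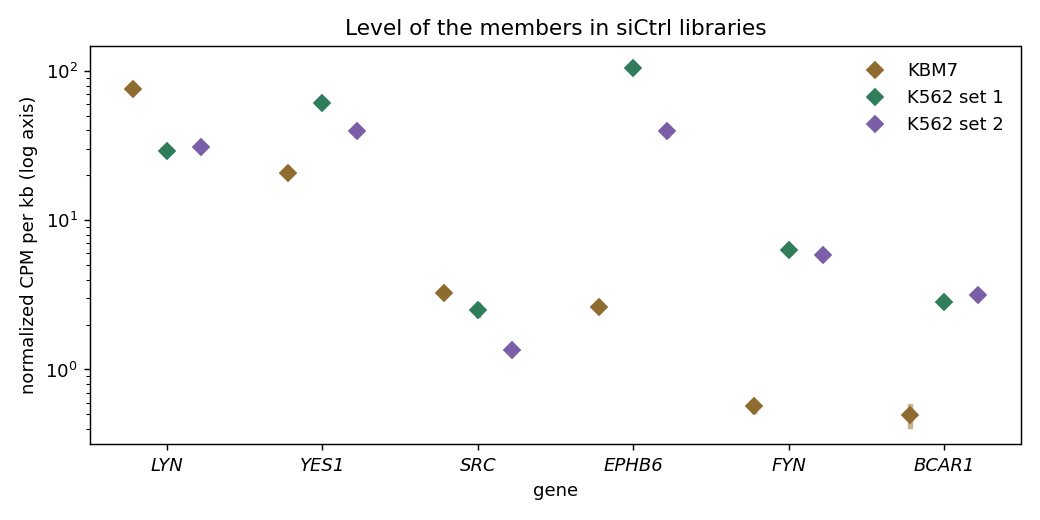
Normalized CPM per kb of exon (y axis, log scale) in siCtrl libraries of KBM7 and the K562 sets. Diamonds are means of 2 libraries and bars run from the lower to the higher library. LYN leads in KBM7 at 75.8, and EPHB6 leads in K562 set 1 at 105.5.

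Genes that act with the members were counted in 5 lists, chosen with earlier results of these data known. The shares and p-values of list genes are not independent of that choice, so nothing is read from their gaps to all genes. Of the 135 list genes, 117 were tested in KBM7, where 27 were higher and 28 lower after siUSP15 (47%, beside 29% of all genes tested). Without siCtrl replicate 1 or siCtrl replicate 2 of KBM7, fewer list genes passed there, and fewer of all genes passed too. In K562 set 1, 12 of 99 were higher and 30 lower (42.4%, beside 35.7% of all genes). In K562 set 2, 1 of 99 passed (LCP1, lower), which is 1.01% beside 2.29% of all genes, and 21 of 99 had different effects in the sets (21.2%, beside 12.5%). Over both sets 5 of 98 were higher and 11 lower (16.3%, beside 15.8%). In all, 8 passed over both sets with the replicate number as a block, beside 1022 of all 13731 genes. Without siCtrl replicate 1, siCtrl replicate 2, siUSP15 replicate 1 and siUSP15 replicate 2, 7, 3, 6 and 9 list genes passed. Of all genes, 860, 555, 820 and 1344 passed in these fits, against 2167 in the main fit.

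Of the other non-receptor tyrosine kinases, 3 of 16 were higher and 5 lower in KBM7 (median log2 difference -0.03, against 0.00067 over all genes). BMX and TEC, kinases of the TEC family, fell in KBM7 (log2 differences -1.22 and -0.47, edgeR adjusted p = 3.06e-05 and 0.000133), as did ABL1 (-0.40, adjusted p = 0.000128), part of the fusion of these lines. In K562 set 1, 0 of 14 were higher and 2 lower: JAK1 (-0.26, edgeR adjusted p = 0.000552) and JAK2 (-0.15, adjusted p = 0.0164), kinases of cytokine receptors. JAK2 was lost with DESeq2, no filter, and without siCtrl replicate 1 or siUSP15 replicate 2. Over both sets BTK alone passed (-0.11, edgeR adjusted p = 0.0448), and it was lost in 13 of 14 alternatives.

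Of the regulators of Src kinases, 7 of 29 were higher and 5 lower in KBM7 (median 0.02), and 5 of 26 were higher and 8 lower in K562 set 1 (median -0.07, against -0.0069 over all genes). PTPRE, a receptor phosphatase that can activate Src kinases, fell in KBM7 (-1.35 ± 0.11, edgeR adjusted p = 5.02e-06). PAG1, the membrane adaptor that recruits CSK, rose there (0.78 ± 0.15, adjusted p = 0.00201), as did TOM1L1 (0.63, adjusted p = 0.00231) and PTPN18 (0.29, adjusted p = 0.00168). PTPRE and PAG1 had at most 3 counts in any K562 library. CSK rose in K562 set 1 (0.35 ± 0.05, edgeR adjusted p = 8.67e-05), at 114 and 127 normalized CPM in siUSP15 libraries, against 94.7 and 92.5 in siCtrl libraries. PTPRC fell there (-0.62 ± 0.07, edgeR adjusted p = 6.8e-06), and so did the phosphatase PTPN6 (-1.07 ± 0.17, adjusted p = 0.000112). The chaperone CDC37 rose in set 1 (0.23, edgeR adjusted p = 0.000142). In set 2 CSK (0.02), PTPRC (0.07), PTPN6 (-0.26) and CDC37 (0.04) did not pass, and all differed between the sets by the interaction test. CSK and PTPRC did not pass over both sets either (edgeR adjusted p = 0.068 and 0.0825). In KBM7 CSK and PTPN6 moved the other way than in set 1. Their effects in KBM7 minus those averaged over the K562 sets were -0.34 ± 0.06 for CSK (edgeR adjusted p = 0.000357) and 0.86 ± 0.12 for PTPN6 (adjusted p = 8.72e-06). Over both sets PTPN6 and NMT2 were lower and CDC37 higher, and none of these calls held without siUSP15 replicate 1.

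Of the BCAR1 partners and focal adhesion genes, 9 of 33 were higher and 10 lower in KBM7 (median -0.06), and 2 of 29 were higher and 9 lower in K562 set 1 (median -0.02). The focal adhesion kinase PTK2 fell in KBM7 to 9.85 and 11.6 normalized CPM in siUSP15 libraries, against 19.1 and 20.3 in siCtrl libraries (-0.88 ± 0.10, edgeR adjusted p = 4.99e-05). Its relative PTK2B rose in KBM7 (0.52 ± 0.06, edgeR adjusted p = 4.19e-05) and fell in K562 set 1 (-0.60 ± 0.05, adjusted p = 3.32e-07). The effect on PTK2B in KBM7 minus that in K562 was 0.93 ± 0.07 (edgeR adjusted p = 2.98e-10). The exchange factor RAPGEF1, which CRK recruits, was higher in KBM7 (0.31, edgeR adjusted p = 0.00163) and in K562 set 1 (0.28, adjusted p = 9.92e-05). SOS1 fell in KBM7 (-0.39, edgeR adjusted p = 0.00024). CASS4, a relative of BCAR1, fell in K562 set 1 (-0.47, edgeR adjusted p = 3.81e-06), and so did ZYX (-0.30, adjusted p = 0.000136). Over both sets PTK2B was lower (-0.40 ± 0.07, edgeR adjusted p = 0.00608), a call lost in 1 of 14 alternatives, the fit with no term for the sets. RAPGEF1 was higher (0.19 ± 0.04, edgeR adjusted p = 0.0122), lost with no term for the sets and without siCtrl replicate 2 or siUSP15 replicate 1. Also over both sets, ELMO1 passed as lower (-0.38, edgeR adjusted p = 0.0426), named here after its value was seen because it completes the 5 calls. The last calls, SH2D3A and CASS4, were lower (-0.32 and -0.26, edgeR adjusted p = 0.0271 and 0.0413), and both were lost with the replicate number as a block.

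Of the Eph receptors and ephrins, 0 of 14 were higher and 2 lower in KBM7 (median -0.09). EPHA2 fell to 2.17 and 2.26 normalized CPM in siUSP15 libraries of KBM7, against 5.17 and 6.15 in siCtrl libraries (-1.35 ± 0.16, edgeR adjusted p = 0.000105). EPHB4, a catalytically active relative of EPHB6, fell in KBM7 (-0.31 ± 0.05, edgeR adjusted p = 0.00117). In K562 set 1, EPHB4 alone of 7 passed: it was at 169 and 189 normalized CPM in siUSP15 libraries, against 126 and 131 in siCtrl libraries (0.45 ± 0.05, edgeR adjusted p = 2.77e-06). In set 2 EPHB4 did not pass (0.12 ± 0.05, edgeR adjusted p = 0.2), and its effect in set 1 minus that in set 2 was 0.33 ± 0.07 (adjusted p = 0.00539). The effect on EPHB4 in KBM7 minus that in K562 was -0.59 ± 0.07 (edgeR adjusted p = 5.07e-07).

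Of the substrates and adaptors, 8 of 25 were higher and 6 lower in KBM7 (median 0.0041), and 4 of 23 were higher and 11 lower in K562 set 1 (median -0.18). CDCP1, a membrane protein that Src kinases phosphorylate, fell in KBM7 and in K562 set 1. In KBM7 it was at 6.40 and 8.96 normalized CPM in siUSP15 libraries, against 30.4 and 30.6 in siCtrl libraries (-2.01 ± 0.12, edgeR adjusted p = 5.17e-07). CDCP1 was at 70.2 and 64.6 in siUSP15 libraries of K562 set 1, against 112 and 106 in siCtrl libraries (-0.72 ± 0.06, edgeR adjusted p = 2.95e-07). In set 2 CDCP1 did not pass (-0.18 ± 0.07, edgeR adjusted p = 0.208). Its effect in set 1 minus that in set 2 was -0.54 ± 0.09 (edgeR adjusted p = 0.00226). CTTN and PIK3AP1 fell in KBM7 (-1.07 and -0.57, edgeR adjusted p = 8.69e-05 and 1.72e-05), whereas HCLS1, the cortactin relative of blood cells, rose (0.43, adjusted p = 3.91e-05). The blood cell proteins LCP1, FYB and LCP2 fell in K562 set 1 (-0.70, -1.33 and -0.62, edgeR adjusted p = 2.36e-08, 1.34e-05 and 1.56e-05). In set 2 FYB (-0.37) and LCP2 (0.08) did not pass. The effects on LCP1, FYB and LCP2 differed between the sets by the interaction test. LCP1 also fell in set 2 (-0.22 ± 0.05, edgeR adjusted p = 0.0211), a call lost without siCtrl replicate 3, siCtrl replicate 4 or siUSP15 replicate 4. CAV1, which had at most 101 counts in a K562 library, was higher over both sets (0.95 ± 0.20, edgeR adjusted p = 0.0124).

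**Figure D5:**
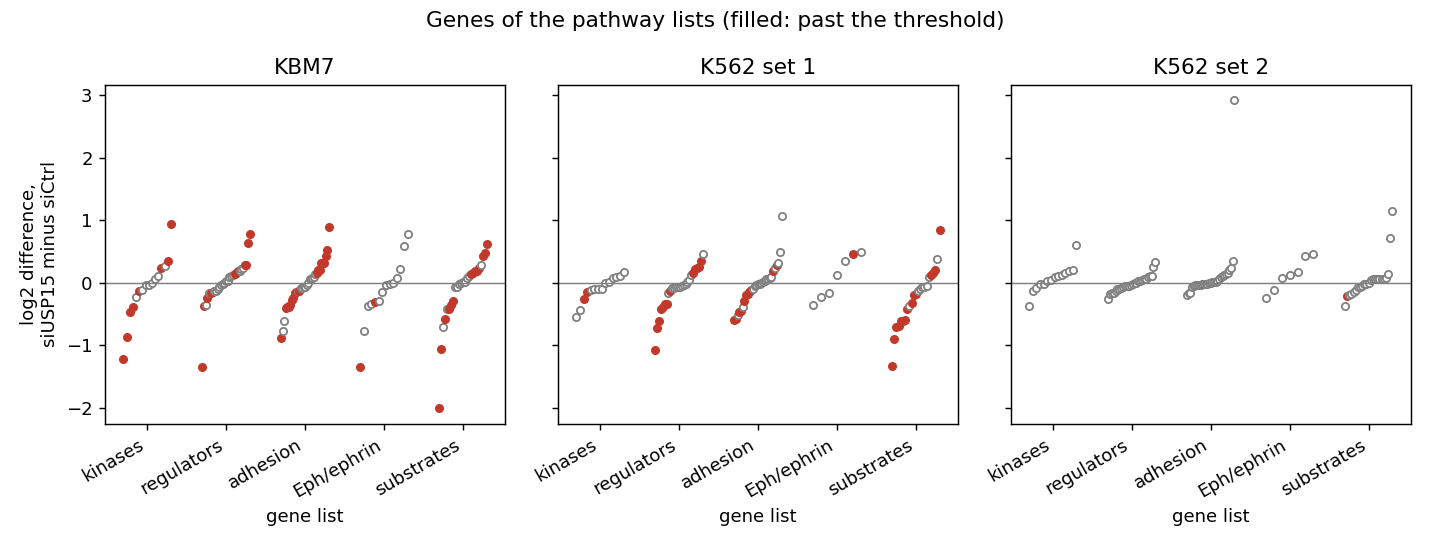
Log2 difference, siUSP15 minus siCtrl (y axis), of each tested gene in the 5 lists (x axis), in KBM7 and the K562 sets. Filled points passed the threshold: 55 of 117 in KBM7, 42 of 99 in set 1 and 1 of 99 in set 2.

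The genes most like YES1 over the 8 K562 libraries, by Pearson's r of log2 normalized CPM among 11556 genes, were FBXL13, MICALCL and CD46 (r = 0.994, 0.994 and 0.992). CD46, a complement regulator, was at 174 to 180.3 normalized CPM in siUSP15 libraries of K562, against 210.2 to 295 in siCtrl libraries. Those most like EPHB6 were PFKM, ADCK4 and IL10RA (r = 0.995, 0.993 and 0.993). PFKM, the muscle form of phosphofructokinase, was at 81.0 to 88.5 in siUSP15 libraries of K562, against 84.5 to 111 in siCtrl libraries. Over the same 8 libraries r was 0.873 between YES1 and EPHB6, 0.72 between YES1 and USP15, and 0.302 between EPHB6 and USP15. Over all 12 libraries and 11870 genes, FURIN, PDZD8 and NPRL3 were most like BCAR1 (r = 0.996, 0.995 and 0.994). These values are descriptions: the libraries share the sets, the lines and the siRNA pools.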

How the data were processed

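RNA-seq of 12 libraries, 72 h after transfection of KBM7 or K562 with siUSP15 or siCtrl, was analysed. The authors' deposited tables hold raw counts per gene and library for each line. The submitters' processing notes name TopHat2 2.1.0, HTSeq, edgeR, limma and hg38. Deposited log2 values, fold changes and adjusted p-values were not used.

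In edgeR 4.0.16 (R 4.3.3), low counts were removed by filterByExpr, libraries were scaled by TMM, and 2-sided quasi-likelihood tests were adjusted by Benjamini-Hochberg over all genes tested (threshold 0.05). K562 was fitted as 4 groups by set and siRNA, and over both sets with a term for the set. Differences between the lines came from 1 fit over the genes in both tables (15833 tested). Levels are CPM scaled by TMM over all 12 libraries, so normalization and filter can shift small differences. The tests in KBM7, in set 2 and over both sets were run on simulated counts with a fixed spread and no gap between the K562 sets. That setting is simpler than these data, so it does not show how the tests perform here. No pair of replicates was a copy. Figures were drawn with matplotlib 3.10.9.

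Same-numbered K562 libraries deviated together (correlations 0.587 to 0.752), but within the sets only by 0.0308 and 0.117, and in KBM7 by -0.0056: the numbers share the set, which is in the fits. The sets were taken from the replicate numbers. The members and lists were chosen with earlier results of these data known. Named were all members, USP15, up to 4 list genes per list and comparison by lowest p, and the 3 genes most like YES1, EPHB6 and BCAR1 whose mean log2 CPM reached 1. Alternatives were RLE, no filter, DESeq2 1.42.0, limma-voom (limma 3.58.1), a replicate block, no set term, both lines in 1 fit, single sets, and each library left out. Those for the differences between the sets were added after seeing the data. Where 1 library was left, its spread was taken from the other groups. A few list and marker genes are not reported here.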

Additional observations from a re-analysis of the deposited data

Results flagged for a closer look

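The siUSP15 effect differed between the K562 sets for YES1 (-0.77 on the log2 scale, set 1 minus set 2), EPHB6 (-0.99) and BCAR1 (0.31), and between the lines, KBM7 minus K562, for BCAR1 (-2.36), EPHB6 (0.79) and FYN (0.38), each by the interaction test of edgeR. These contrasts picked the members, so the values are descriptions. The BCAR1 difference between the sets was lost with DESeq2 and without any one of 7 of the 8 K562 libraries, siUSP15 replicate 1 being the exception. In K562 siUSP15 libraries, LCK was at 0.0240 normalized CPM in replicate 2, which is 1 count, and at 0 in the other 3. Chance sets a library apart in about 1 of 20 groups of this size, but that rate need not hold for counts of 0 and 1. The library with the 1 count also had the highest total (43566543), so nothing is read from this flag.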

How the results depend on the processing

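The decreases of YES1 and EPHB6 in K562 set 2 kept their direction under all alternatives run, at -0.50 to -0.44 and -0.46 to -0.27 with 1 library left out. EPHB6 missed the threshold only without siCtrl replicate 4 (-0.27). With 1 library left out, members past the threshold ranged from 2 to 3 in KBM7, 3 to 4 in K562 set 1, 1 to 2 in set 2, 2 to 4 over both sets, 2 to 4 for the difference of the lines and 2 to 3 for the difference of the sets. List genes ranged from 31 to 57 in KBM7, 29 to 45 in set 1, 0 to 2 in set 2 and 3 to 21 over both sets. Replicate block, which holds the shared number of libraries: 2 members and 8 list genes passed over both K562 sets, against 4 and 16 without it, and 2 list genes in set 2, against 1. The block also ended the calls of LYN in KBM7 and of FYN in the difference of the lines. All genes called over both sets fell to 1022 with the block, against 2167 without it, and rose to 642 in set 2, against 329. With no term for the sets, 0 members, 0 list genes and 0 of all 13731 genes passed over both sets in edgeR. An unadjusted p under 0.05 was found for 4 members and 11 list genes (1447 genes in all). With no filter, 26 list genes passed over both sets and 4 in set 2, beside 2818 and 639 of all genes. In set 2, limma-voom and both lines in 1 fit each gave 2, beside 263 and 320 of all genes. The difference of the lines for YES1 changed sign to -0.34 against K562 set 2 only, whereas it was 0.04 against both. The cause of these changes was not tested. With 2 libraries per group the spread is poorly known, LCK and FGR are below what this depth resolves, and no source says what separates the K562 sets.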
